A study of Mus musculus with 88 samples.

Results

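Interferon-stimulated antiviral genes were followed through a bulk RNA-seq study of the mouse nucleus accumbens, a striatal region of reward learning. The 39 genes are a fixed list of known members of this group, set by name with no threshold on their values, and all 39 were found among the 55487 genes of the count table. The animals carried a C57BL/6 background and received herpes simplex virus (HSV) vectors for dCas9 fused to CREB(S133D), a form of the transcription factor CREB that mimics its phosphorylated state, together with a guide RNA. The guide was either g11, directed to the gene Fosb, or gNT, a non-targeted control. Tissue was taken 6 days after surgery.

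The 12 groups combine sex, the cells reached and the guide. In D1-Cre and D2-Cre mice the vectors depended on Cre, so that expression was aimed at neurons with the D1 or the D2 dopamine receptor. In the groups called D1D2 here, which are labelled D1-Cre, the vectors did not depend on Cre. Every group, controls included, received virus and surgery, and no uninjected group was analysed, so the values below hold no baseline without HSV. Female groups held 8 control and 6 Fosb-guide libraries for D1, 8 and 8 for D2, and 8 and 12 for D1D2. Male groups held 4 and 7 for D1, 8 and 7 for D2, and 7 and 4 for D1D2. The labels give the animals no age, and do not say whether each library came from 1 mouse. If libraries share an animal or a pool, p-values measure the spread between libraries alone.

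Of these 87 libraries, 78 came from sequencing batch 1 and 9 from batch 2, and batch 2 held male D2 libraries only (6 control, 3 Fosb guide). Total counts ran from 12430387 to 69568367 with a median of 31393804. In 4 libraries, all with the Fosb guide (17907, 18432, 18919 and 19610), over 90% of the counts fell on 10 genes, so that their other genes rest on few counts. Libraries 18722 (male D1) and 18749 (male D1D2), again with the Fosb guide, had nearly the same counts. Markers of medium spiny neurons, the main neurons of this region, were present throughout, with a summed level of 715 to 5437 CPM (counts scaled to a common library total). Markers of cortical glutamatergic neurons summed to 3.69 to 878 CPM, and their part in the results was not tested. Fosb itself had group medians of 4.47 to 10.3 CPM, and its libraries overlapped between the guides in every arm.

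Interferon-stimulated genes are switched on when a cell senses virus or receives interferon from its neighbours. Type I interferons signal through the receptor Ifnar1/Ifnar2 and the kinases Jak1 and Tyk2 to a complex that holds Stat2 and Irf9 and binds interferon-stimulated response elements (ISREs) in promoters. Interferon gamma, made mainly by T cells and natural killer (NK) cells, signals through Ifngr1/Ifngr2 and acts on a different promoter site called GAS. Many of the antiviral genes answer to both. In the brain they can be induced in neurons, astrocytes, microglia and vessel cells as well as in cells that enter from blood.

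Promoter sequence is shown because it is a property of these genes that no expression value entered. RefSeq (build GRCm38.p6) gave a window from 250 bases before to 50 bases after the start site for 28 of the 39 genes. The core spacing of the ISRE, GAAANNGAAA read on either strand, stood in 13 of the 28 (46.4%), against 3.99% of 27025 genes with such a window. The palindromic GAS letters, TTCNNNGAA, stood in 5 of the 28 (17.9%: Bst2, Eif2ak2, Ifi35, Ifit2 and Oas1a) against 9.55% of genes, and 3 of these genes held both motifs. The motifs can overlap in the letters GAA or TTC, and an overlap counts for both. Each run below is 30 bases on the gene's strand, written 5′ to 3′, with the match in capitals. A capital run that starts with TTTC is the same motif on the other strand. They were chosen to cover the 4 roles for which a match lay wholly before the start site.
Ifit1, chr19:34640775-34640804, plus strand: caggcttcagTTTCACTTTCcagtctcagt
Ifit1, chr19:34640794-34640823, plus strand: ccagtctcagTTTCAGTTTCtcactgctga
Ifit3, chr19:34583363-34583392, plus strand: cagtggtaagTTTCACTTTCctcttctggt
Ifit3b, chr19:34607759-34607788, plus strand: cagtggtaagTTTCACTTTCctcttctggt
Oas3, chr5:120777715-120777744, minus strand: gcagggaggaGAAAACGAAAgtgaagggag
Rsad2, chr12:26456553-26456582, minus strand: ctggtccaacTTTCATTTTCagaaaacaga
Bst2, chr8:71537583-71537612, minus strand: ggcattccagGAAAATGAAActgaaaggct
Isg15, chr4:156200871-156200900, minus strand: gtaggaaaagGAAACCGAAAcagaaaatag
Stat2, chr10:128270266-128270295, plus strand: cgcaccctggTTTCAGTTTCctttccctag

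The first capital lay 222 bases before the start site in Stat2, 156 in Ifit3, 130 in Bst2, 75 in Oas3 and 72 in Isg15. The stretches shown for Ifit3 and Ifit3b are letter for letter the same, as are their second matches. These neighbours on chromosome 19 are close copies, and the way the authors' counting shared reads between them is not given, so their separate levels are uncertain. The Oas and Oasl genes, Mx1 and Mx2, and Ifi27 and Ifi27l2a are also relatives. How alike their sequences are was not compared, so whether reads were shared between them is not known. Some of the genes also overlap others in the annotation. Dtx3l overlaps Parp9, Irf7 overlaps Phrf1 and Irf9 overlaps Rnf31, and whether the authors' counting used strand is not known from the sources at hand. A match is a description of letters, not evidence that a factor binds there.

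All 39 genes passed the filter on low counts, and nearly all of them spanned a wide range. Levels are CPM scaled by TMM, a correction for library composition. The highest library stood over the lowest by 6.997-fold for Ifi27 and 7.62-fold for Cmpk2. For the other 37 genes it stood over it by more than 10-fold, up to 651-fold for Oasl1, and 14 genes passed 100-fold (median over the genes 65.4-fold). The lowest values were small but mostly not at the limit of counting. Oasl1 had 4 counts in its lowest library, while Ifit3 had 254 in its own. Summed over the 39 genes, a library held between 189 and 6633 CPM with a median of 2582. In bulk tissue, fewer cells with a transcript and less of the transcript in each cell cannot be told apart.

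**Figure D1:**
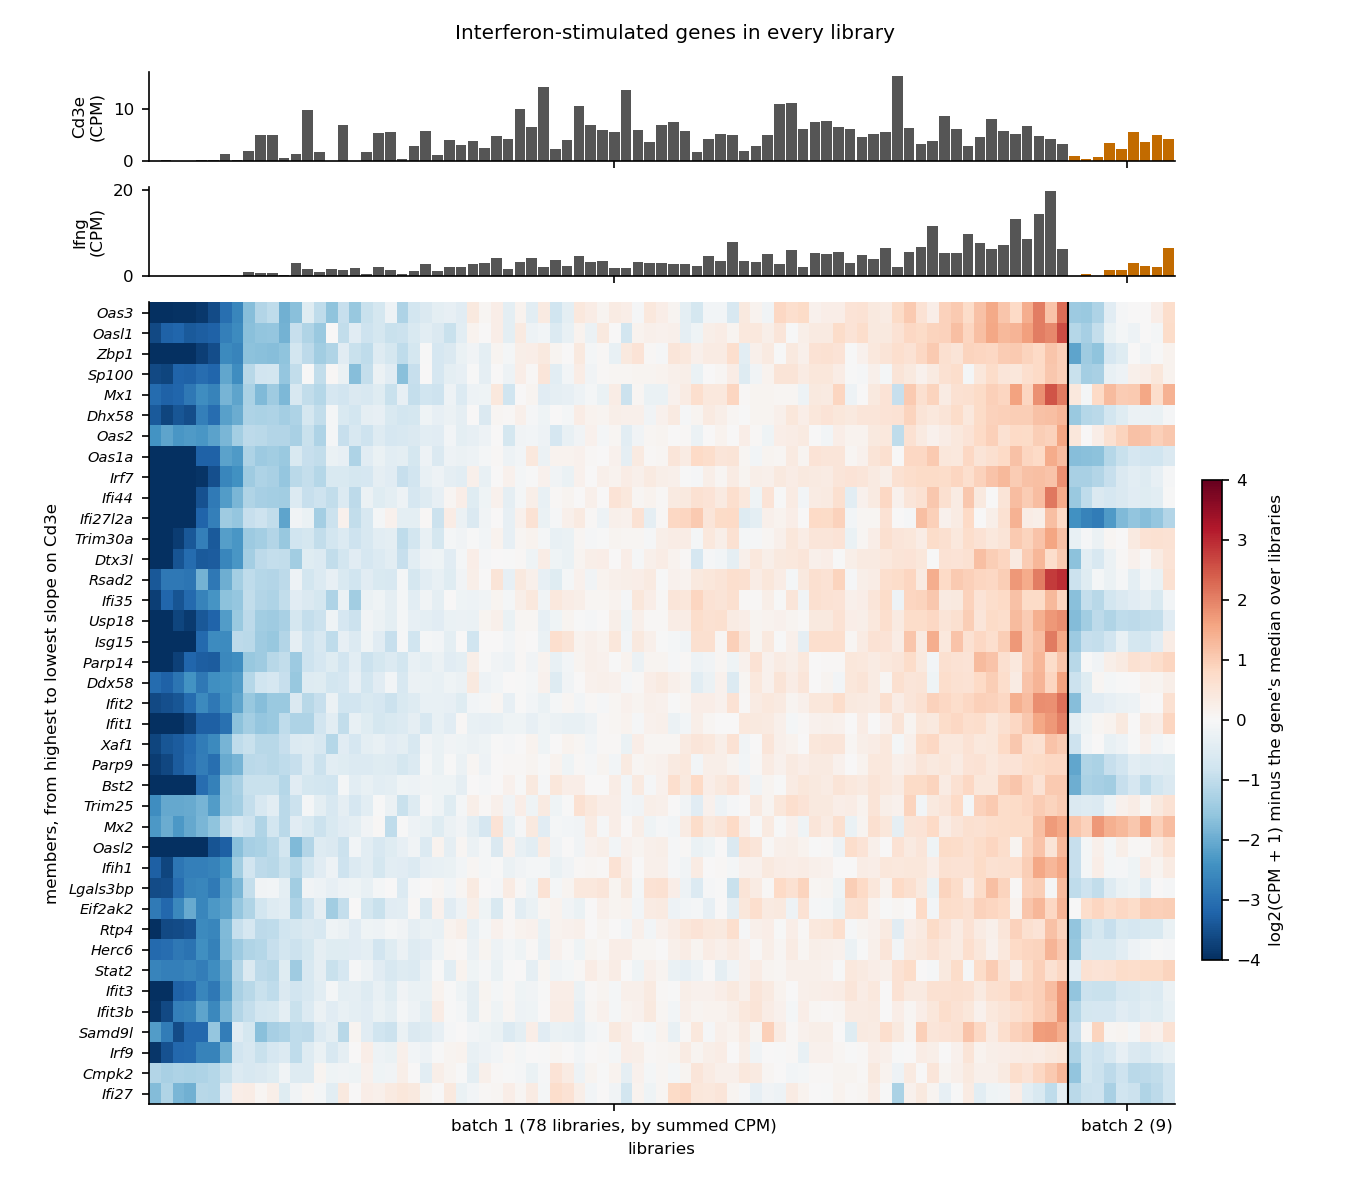
Levels of the 39 genes in 87 libraries. Each row is a gene, from the steepest to the shallowest slope on Cd3e, and each column a library, the 78 of batch 1 and then the 9 of batch 2, each in order of the summed level. Colour gives log2(CPM + 1) minus the gene's median over libraries (blue lower, red higher), and bars above give CPM of Cd3e and Ifng. Deep blue columns run through nearly all rows in the same few libraries at the left, and Cmpk2 and Ifi27 change little.

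The RNA-binding effectors belong to families that act on viral RNA. Ifit1, Ifit2, Ifit3 and Ifit3b are of a family with members that bind it and block its translation. Eif2ak2 (the kinase PKR) shuts translation down on sensing double strands, and Oas1a, Oas2 and Oas3 make the 2′-5′ oligoadenylates that activate RNase L. Oasl1 and Oasl2 are relatives of the Oas enzymes. Per kilobase of exon Ifit3 was the highest of the 10, with a mean of 103 CPM per kilobase. In females Ifit3 ran from 8.001 to 353 CPM (median 126) in D1D2 controls and from 87.6 to 604 (median 211) in D1D2 mice with the Fosb guide. In female D1 mice it ran from 114 to 328 (median 197) in controls and from 134 to 207 (median 183) with the Fosb guide. Female D2 controls lay between 82.3 and 244 CPM of Ifit3 (median 175), and their Fosb-guide counterparts between 147 and 267 (median 196). Control and Fosb-guide libraries overlapped in each of these pairs, and the controls reached lower in all 3.

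In males Ifit3 ran from 72.99 to 343 CPM (median 190) in D1 controls and from 136 to 234 (median 203) with the Fosb guide. Male D2 controls lay between 10.3 and 422 CPM (median 105) and the Fosb-guide libraries between 97.8 and 216 (median 158). In batch 2, which holds 6 of these controls, the medians were 105 and 126. Male D1D2 controls lay between 28.3 and 286 CPM (median 200.5) and the 4 Fosb-guide libraries between 140 and 233 (median 181). Again the guides overlapped in each pair, and the controls had the wider range. Oas3, the largest of the Oas enzymes, had group medians from 14.3 CPM (male D1 with the Fosb guide) to 27.2 (female D2 controls). Ifit3b had group medians from 43.5 to 83.2 CPM.

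Among the other effectors are Mx1 and Mx2, of a family of GTPases that can trap viral particles. Whether their RNA gave working protein in these animals was not tested. Rsad2 (viperin) and its neighbour Cmpk2 handle nucleotides, and Bst2 (tetherin) holds budding virus at the membrane. Zbp1 senses Z-form nucleic acid and can start cell death, Sp100 is a nuclear body protein, and Lgals3bp is a secreted glycoprotein. Samd9l, Xaf1, Rtp4, Trim30a, Ifi44, Ifi35, Ifi27 and Ifi27l2a complete these 16. Ifi27l2a was the highest of them per length, with 187 CPM per kilobase, followed by Bst2 with 116 and Lgals3bp with 64.5. The library values of Ifi27l2a ran from 1.17 to 234 CPM, with group medians from 21.6 in male D2 controls to 151 in male D1 mice with the Fosb guide. Of these male D2 controls 6 are from batch 2. The male D2 libraries with the Fosb guide had a median of 26.5 CPM in batch 2 and 129 in batch 1. Zbp1 ran from 0.504 to 91.1 CPM, with group medians of 27.6 to 55.4.

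Ifi27, which encodes a small membrane protein of mitochondria and the nuclear envelope, had the smallest fold between its highest and lowest library. Its library values ran from 19.9 to 139 CPM. Female D1D2 controls lay between 19.9 and 102 CPM (median 42.6), and Fosb-guide libraries between 55.2 and 117 (median 80.8). Male D2 controls held the narrowest range, 30.6 to 43.9 CPM, and the lowest median (37.2), against 32.8 to 139 (median 81.0) with the Fosb guide. Of these controls 6 are from batch 2, where the Fosb-guide libraries lay between 32.8 and 44.0 CPM. In the remaining 8 groups the medians lay between 69.3 and 87.8 CPM.

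The modifiers attach or remove small protein tags. Isg15 is itself such a tag, Herc6 attaches it in the mouse and Usp18 removes it, while Trim25 is a ubiquitin ligase for the sensor RIG-I, and Dtx3l, Parp9 and Parp14 act in ADP-ribosylation. Isg15 was the highest per length, at 77.4 CPM per kilobase, and ran from 1.04 to 228 CPM. Its group medians lay between 31.6 CPM in male D2 controls and 94.3 in male D1 controls. Of these male D2 controls 6 are from batch 2, where the median of Isg15 was 31.6 CPM with either guide. In batch 1 the male D2 libraries with the Fosb guide had a median of 52.3. Dtx3l had group medians of 57.6 to 98.4 CPM and Herc6 of 37.6 to 64.0. The sensors Ifih1 (MDA5), Ddx58 (RIG-I) and Dhx58 (LGP2) detect viral RNA in the cytoplasm. Per length Ifih1 was the highest of them at 6.25 CPM per kilobase, with Dhx58 at 6.249 and Ddx58 at 5.802. Group medians were 37.9 to 54.7 CPM for Ifih1 and 13.1 to 24.0 for Dhx58.

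The transcription factors of the list were Irf7, which amplifies type I interferon production, and Irf9 and Stat2 of the ISRE-binding complex. Irf7 was the highest of them per length at 28.9 CPM per kilobase. Its library values ran from 2.17 CPM in a female D1D2 control to 376 in a female D1D2 library with the Fosb guide, and its group medians from 63.3 to 123. Irf9 had group medians of 67.2 to 114 CPM. Stat2 had the narrowest range of the 3, 15.4-fold between its extreme libraries.

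**Figure D2:**
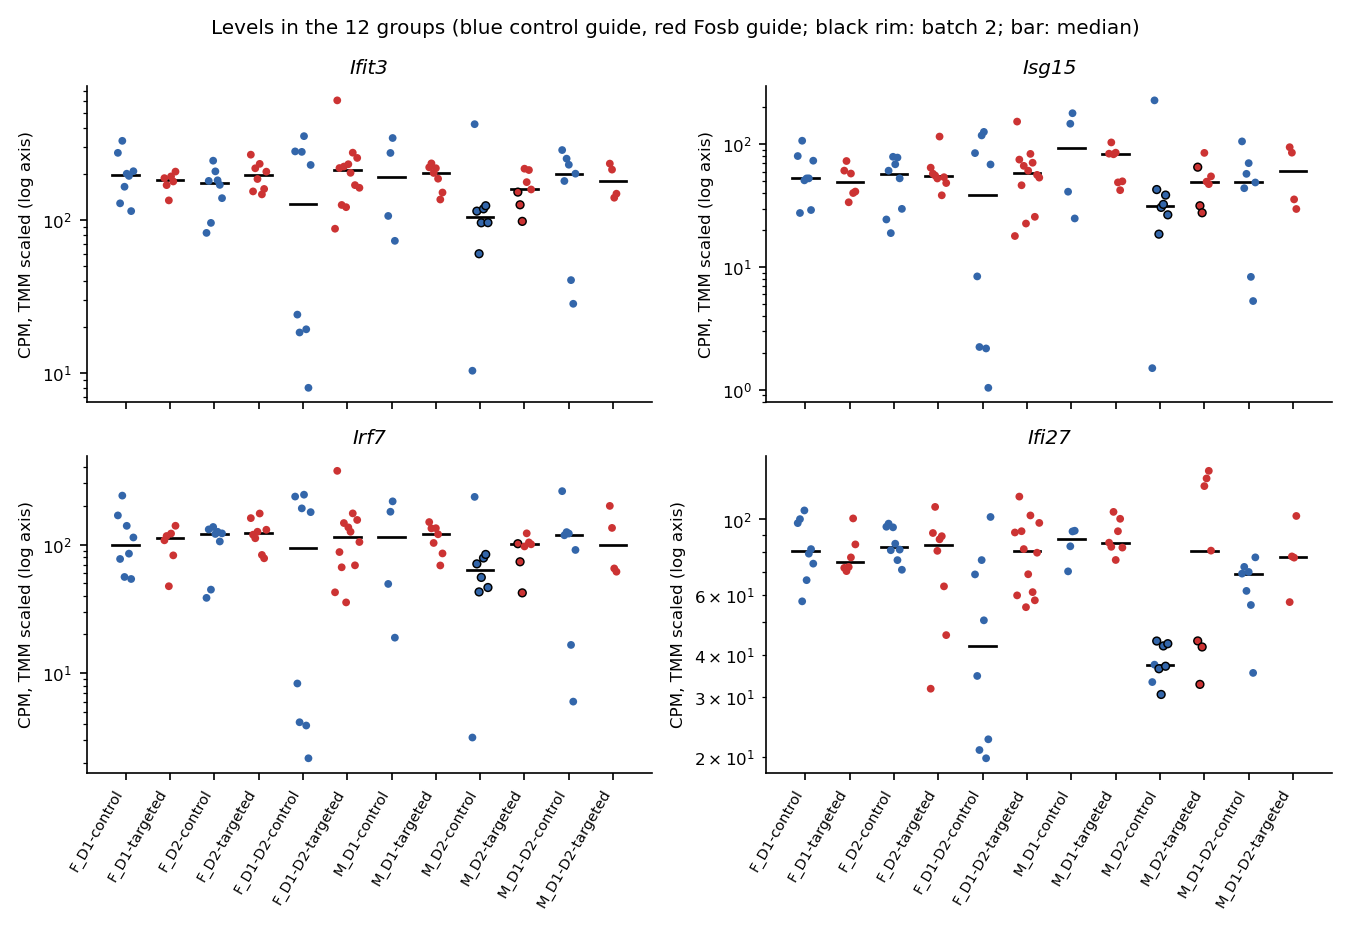
CPM of Ifit3, Isg15, Irf7 and Ifi27 in the 12 groups, on a log axis. Points are libraries (blue control guide, red Fosb guide, black rim batch 2) and bars are group medians. For the first 3 genes the control groups of several arms spread far downward, while for Ifi27 the male D2 controls sit low together, between 30.6 and 43.9 CPM.

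The genes rose and fell together from library to library. Over the 78 libraries of batch 1, with each gene centred on its group mean, all 741 pairs of genes had a correlation of log2 CPM above 0, with a median r of 0.95. The closest pair was Ifit3 with Ifit3b (0.99) and the most distant Rsad2 with Ifi27 (0.33). Set against the mean of the other 38 genes, Ifi27 had r = 0.48, Cmpk2 had 0.89, and the rest had at least 0.93. These correlations describe libraries that also differ in depth and tissue content, so no test was attached.

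The extremes fell on few libraries. Female D1D2 control library 19754 was the lowest of all 87 for 27 of the genes and male D2 control 18386 for 8, and 19599, 19750, 19511 and 3619 were lowest for 1 each, all of them controls. In the 8 female D1D2 controls the summed level was 189, 237, 266 and 371 CPM in 19754, 19599, 19750 and 19598, and 3573, 3761, 4082 and 5357 CPM in 19762, 19719, 16760 and 19727. No library of that group lay between, and Ifit3 took the same order, from 8.001 to 24.1 CPM in the first 4 and from 229 to 353 in the others. At the upper end, female D1D2 library 16762 with the Fosb guide was the highest for 17 genes (6633 CPM summed) and male D2 control 19099 for 12 (5633 CPM summed).

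The first question of the design was whether the Fosb guide changed these genes. In edgeR's quasi-likelihood test, with Benjamini-Hochberg adjustment over the 25420 genes tested and a threshold of 0.05, none of the 39 was called in any of the 6 arms. The share of all genes called, printed here as the background, was 0.00393% in female D1, 0% in female D2, 0% in female D1D2, 0% in male D1, 0.0629% in male D2 and 0.00393% in male D1D2 mice. At such shares fewer than 1 call would fall among 39 genes. An unadjusted p under 0.05 was found for 1 member in female D1D2 (3.40% of all genes) and 1 in male D2 (2.18%). It was found for 0 in each of the other arms, against 1.66% to 7.11% of all genes. DESeq2 called none of the 39 in any arm, and limma-voom with sample weights called none in 5 arms and 20 in female D1D2, where its share of all genes was 0.763%.

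The direction leaned upward with the Fosb guide in some arms without passing the test. Because the genes rose and fell together (median r of 0.95 between pairs), the counts above 0 are not independent observations. The log2 fold changes (Fosb guide over control guide) had a median of 0.29 over the genes in female D1D2 mice, with 37 of 39 above 0, beside a median over all genes of −0.0039. Without library 16762, the highest of all, that median was 0.06 with 24 above 0. In male D1D2 mice the median was 0.33 with 38 above 0 (all genes −0.03), and without library 17728 it was 0.05 with 24 above 0. Female D2 mice had a median of 0.17 with 38 above 0 (all genes −0.03), and male D2 mice 0.06 with 25 above 0 (all genes 0.01). In batch 1 alone the male D2 median was −0.13. Female D1 mice had −0.14 with 3 above 0 (all genes 0.0036), and male D1 mice −0.03 with 17 above 0 (all genes 0.03). The median standard error of a gene was 0.45 to 0.63 over the arms, larger than each of these medians. The medians depended on the tool. With limma-voom, which weights libraries by how far they lie from the model, the median was 1.85 in female D1D2 mice, with 39 of 39 above 0. An unadjusted p under 0.05 was found there for 39, against 12.6% of all genes. The limma-voom median was 0.43 in male D2 mice (39 above 0), 0.34 in male D1D2 (38) and 0.02 in female D2 (22). In female D1 it was −0.0020 (18) and in male D1 mice −0.28 (9).

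Ifi27 had the smallest p of the 39 genes in 3 of the 6 arms. In female D1D2 mice its log2 fold change was 0.71 (SE 0.20, unadjusted p 0.00071, edgeR adjusted p 1), and it was followed by Cmpk2 with 0.42 (SE 0.22). In male D2 mice Ifi27 was at 0.69 (SE 0.27, unadjusted p 0.0117, edgeR adjusted p 1), followed by Rsad2 with −0.49 (SE 0.58). In male D1D2 mice Ifi27 was at 0.32 and Irf9 at 0.41, and in female D2 mice Stat2 was at 0.29 and Ifi27 at −0.16. Oasl1 (−0.59) and Rsad2 (−0.47) led in female D1 mice, Lgals3bp (0.53) and Rsad2 (−0.62) in male D1 mice. Of these values none passed.

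The male D2 value of Ifi27 came from batch 1. There the 2 controls held 33.3 and 37.4 CPM and the 4 Fosb-guide libraries 81.0 to 139 (median 129), with no overlap. In batch 2 the 6 controls held 30.6 to 43.9 CPM and the 3 Fosb-guide libraries 32.8 to 44.0, and the guides overlapped. With 2 controls in batch 1 an exact permutation test could not have reached the threshold. Fitted without the batch term, Ifi27 was at 1.16 with an edgeR adjusted p of 0.015 there, in a comparison that sets most controls of batch 2 against most Fosb-guide libraries of batch 1. Among the libraries with the Fosb guide Mx2 differed between the batches without overlap, which was not tested. It lay between 11.3 and 20.6 CPM in the 9 batch 2 libraries and between 5.04 and 7.14 in the 4 Fosb-guide libraries of batch 1, while the 2 controls of batch 1 held 0.648 and 20.0.

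Over the mean of the 6 arms none of the 39 was called (0% of all genes), with a median log2 fold change of 0.11 and 35 above 0. An unadjusted p under 0.05 was found for 1, against 9.52% of all genes. Limma-voom called 0 as well, but gave a median of 0.41 with 39 above 0 and an unadjusted p under 0.05 for 20, against 14.2% of all genes. Ifi27 (0.26, SE 0.10) and Lgals3bp (0.31, SE 0.19) had the smallest p. Between the sexes 0 of 39 were called, against 32.5% of all genes. The median difference, females minus males, was −0.05 with 14 above 0 and a median standard error of 0.25. Under limma-voom it was −0.29 with 2 above 0 and 1 called, against 8106 of 25420 genes. In edgeR, Lgals3bp (0.46, SE 0.22, edgeR adjusted p 0.093) and Isg15 (−0.35, SE 0.27) had the smallest p. The guide effect was compared between the sexes in each cell class, and no member was called in D1 (0.00393% of genes), D2 (0%) or D1D2 mice (0%). The smallest p there belonged to Ifi27 in D2 mice, where the effect in females was lower by 0.85 (SE 0.34, unadjusted p 0.0163, edgeR adjusted p 1). In D1 mice Lgals3bp (−0.52) and Oasl2 (−0.57) came first, and in D1D2 mice Ifi27 (0.40) and Ifit3b (0.65). Limma-voom called 0 members in these comparisons too, with other medians. In D1D2 mice its median was 1.51 with 39 above 0 (edgeR −0.05 with 18). An unadjusted p under 0.05 was found there for 18, against 2.57% of all genes. In D2 mice its median was −0.40 with 0 above 0 (edgeR 0.11 with 26). In D1 mice it was 0.28 with 31 above 0 (edgeR −0.15 with 7).

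A test of any difference among the 12 groups called 1 of the 39 genes, against 16.4% of all genes. That gene was Ifi27 (edgeR adjusted p 0.031), and the next smallest adjusted p was 0.84, for Lgals3bp. Ifi27 was not called when the filter on low counts was left out, and limma-voom called 24 members in this test, beside 37.4% of all genes.

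The second question was which genes follow T cell transcripts. Cd3e, part of the T cell receptor complex, ran from 0 to 16.4 CPM (median 4.61) and was at 0 counts in libraries 19610 and 18919, both among those with over 90% of counts in 10 genes. The summed level of the 15 T cell markers ran from 13.9 to 337 CPM (median 180). Cd3e entered the edgeR model as log2 CPM beside group and batch, so that a slope gives the log2 change of a gene per doubling of Cd3e among libraries of 1 group and batch. All 39 genes had a slope above 0 that passed (largest edgeR adjusted p 0.0024), against 26.5% of all genes. The median slope was 0.45, beside −0.01 over all genes.

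The slopes of single genes ranged widely within the roles. Oas3 had the steepest, 0.85 (SE 0.08), so that a doubling of Cd3e went with a 1.80-fold higher level. Oasl1 followed with 0.78, Zbp1 with 0.71, Sp100 with 0.63 and Mx1 with 0.62. Ifi27 had the shallowest, 0.10 (SE 0.03), a 1.07-fold change, followed by Cmpk2 with 0.13 (SE 0.03) and Irf9 with 0.27 (SE 0.04). The medians were 0.45 for the RNA-binding effectors, 0.46 for the other effectors, 0.47 for the modifiers, 0.46 for the sensors and 0.34 for the 3 transcription factors, and no difference between roles was tested. Within the modifiers Dtx3l had 0.50 and Herc6 0.36, within the sensors Dhx58 had 0.59 and Ifih1 0.39, and among the transcription factors Irf7 had 0.56. Ifit3b (0.33) and Ifit3 (0.33) were the shallowest RNA-binding effectors.

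**Figure D3:**
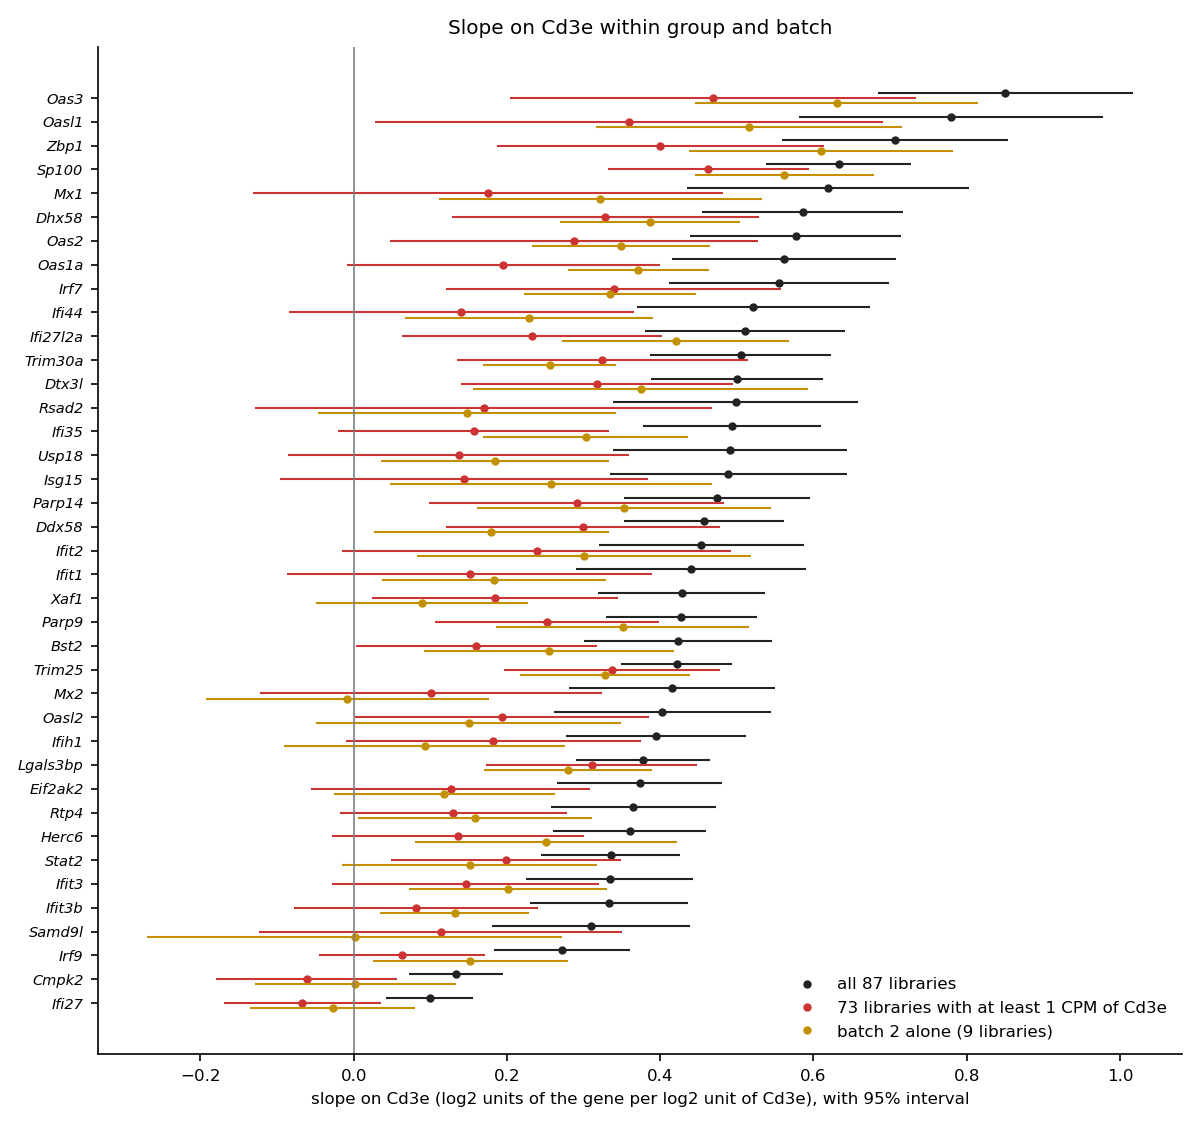
Slope of each of the 39 genes on Cd3e (log2 change per doubling of Cd3e) with its 95% interval, from the model with group and batch, ordered by size, in all 87 libraries (black), in the 73 with at least 1 CPM of Cd3e (red) and in the 9 of batch 2 alone (ochre). All slopes from 87 libraries lie above 0, from 0.10 (Ifi27) to 0.85 (Oas3), while with 73 libraries 14 passed and Ifi27 (−0.07) and Cmpk2 (−0.06) fall below 0.

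The slopes leaned on the libraries with little Cd3e. With the 73 libraries of at least 1 CPM of Cd3e, a limit chosen after the values were seen, 14 of the 39 genes passed against 16.5% of all genes, and the median slope was 0.18. These were Oas3, Sp100, Zbp1, Irf7, Trim25, Dhx58, Trim30a, Dtx3l, Lgals3bp, Ddx58, Parp14, Parp9, Ifi27l2a and Stat2. Sp100 kept a slope of 0.46 (SE 0.07) and Oas3 one of 0.47 (SE 0.13). Isg15 (0.14), Ifit1 (0.15), Mx1 (0.18) and Rsad2 (0.17) did not pass there.

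Within batches the relation was also taken as a correlation, over libraries centred on their group mean. In batch 1 (78 libraries) Pearson r ran from 0.36 for Ifi27 to 0.80 for Sp100 with a median of 0.68. All 39 passed a two-sided permutation test adjusted over all genes, against 29.9% of genes with r above 0 that did. Spearman rho called 38, against 25.6% of genes, all but Ifi27 (rho 0.23, permutation p 0.0772, adjusted 0.135). Without the 2 libraries farthest from the median of Cd3e (19610 and 18919), r ran from 0.37 to 0.90. In batch 2 (9 libraries) r ran from −0.24 for Ifi27 to 0.97 for Sp100 with a median of 0.74, and 14 passed the exact permutation test, against 9.18% of genes. The edgeR slope in batch 2 alone passed for 21 genes against 11.1% of all genes, with a median of 0.25. Ifi27 (−0.03), Mx2 (−0.0082), Samd9l (0.0017) and Cmpk2 (0.0021) lay closest to 0 in that batch.

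**Figure D4:**
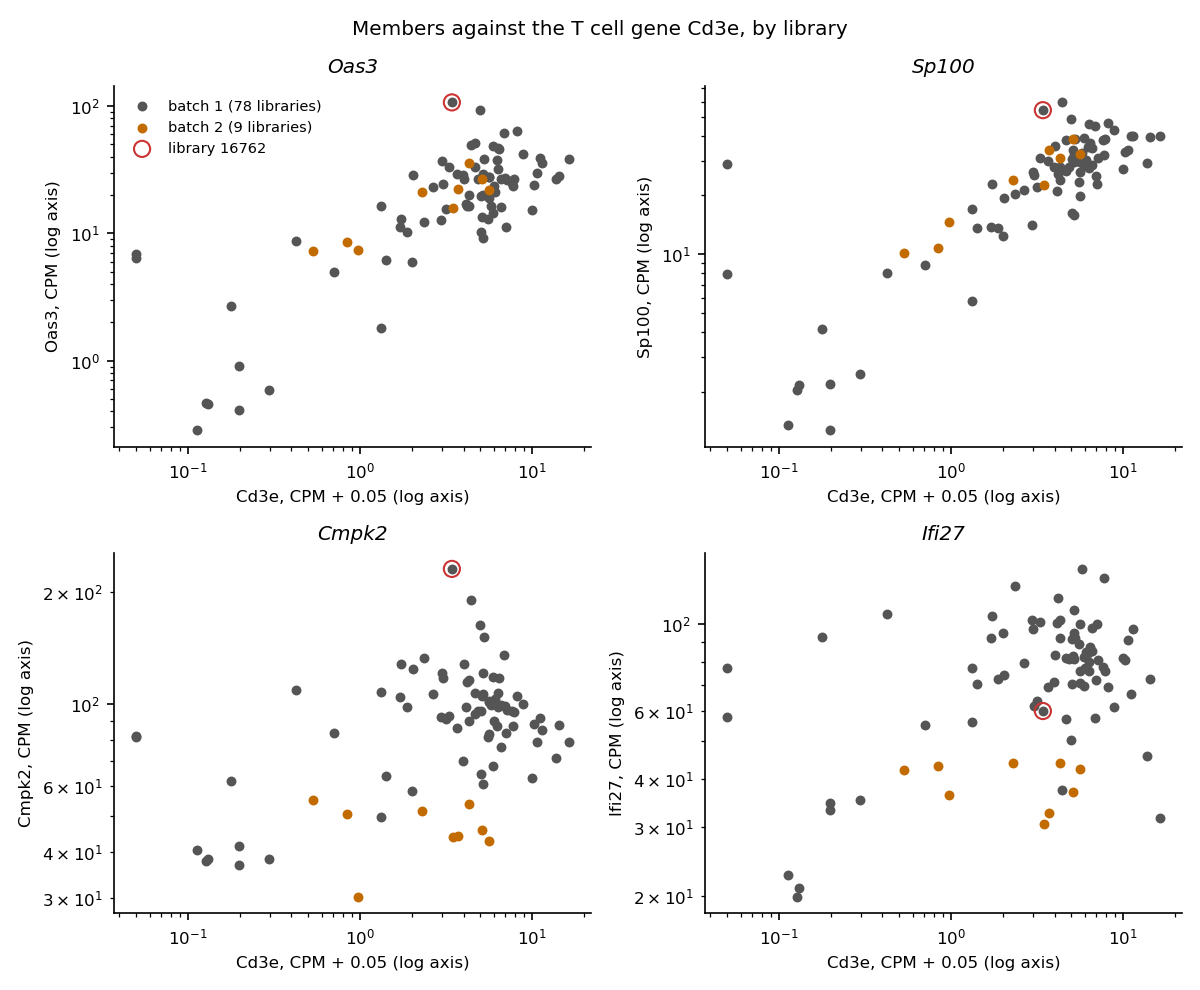
CPM of Oas3, Sp100, Cmpk2 and Ifi27 against CPM of Cd3e plus 0.05, on log axes, each point a library, coloured by batch, with library 16762 ringed. Oas3 and Sp100 rise along most of the range, while Cmpk2 and Ifi27 scatter with little rise and the batch 2 libraries lie low for both.

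Other immune transcripts moved with Cd3e too, and their part in the result was not tested. Of the T cell markers beside Cd3e, 14 of 14 had positive slopes that passed (median 0.84), among them the kinase Lck (0.65), Trbc2 (0.79) and Cd4 (0.15). The NK markers passed in 4 of 4 (median 0.73, Klrk1 0.90, Klrb1c 0.72, Ncr1 0.74) and the B cell markers in 5 of 5 (median 0.83, with the antibody joining chain Jchain at 1.13). Of 6 monocyte and macrophage markers 4 were called upward and 1 downward, and Ly6c2 (0.91), Ccr2 (0.83) and Lyz2 (0.65) were the most abundant. Of 8 microglial markers 6 were called upward (median 0.15, Csf1r 0.26, Cx3cr1 0.13), while Fcrls (−0.04) and P2ry12 (−0.03) did not pass. Astrocyte markers were called in 4 of 5 (median 0.19) and endothelial ones in 4 of 4 (median 0.18). The 4 cortical neuron markers fell with Cd3e in 4 of 4 (median −0.55), the 5 erythrocyte genes in 5 of 5 (median −0.16), and medium spiny neuron markers in 2 of 9 (median −0.05). These compare with 26.5% of all genes called upward and 7176 of 25419 called downward. Beside that downward share the 2 of 9 medium spiny neuron markers are no result about those neurons. The summed monocyte markers ran from 17.0 to 764 CPM and the neutrophil markers from 0 to 5.91.

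Most tested genes of the other interferon pathway lists also had positive slopes on Cd3e that passed, beside 26.5% of all genes. All 6 receptor genes passed with positive slopes on Cd3e (median 0.26), with Ifngr1 at 0.28, Ifnar1 at 0.14 and Ifngr2 at 0.11. All 9 kinases and transcription factors outside the 39 passed (median 0.25). The transcription factor Irf1 had a slope of 0.47 and the kinase Jak1 one of 0.04. The 10 genes of upstream sensing all passed (median 0.41), with Tmem173 (STING) at 0.53, Tlr3 at 0.28 and Tbk1 at 0.03. Among 6 negative regulators 5 passed, led in abundance by Adar (0.05), Pias1 (−0.01, not called) and Socs3 (0.79). No gene of these pathway or cell type lists was called for the guide in any arm.

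Of 10 interferon genes listed, 1 passed the filter on low counts. That was Ifng, interferon gamma, which ran from 0 to 19.6 CPM (median 2.94) and had a slope of 0.99 (SE 0.11) on Cd3e. Ifnb1, the type I interferon beta, reached at most 0.220 CPM and 8 counts and was at 0 counts in 37 of 87 libraries. A count of 0 in a library of the median total does not show that a transcript is absent.

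Because Ifng and Cd3e move together, both were placed in 1 model, an analysis added after the values were seen. Beside Ifng, 6 of the 39 genes kept a positive slope on Cd3e that passed, against 11.1% of all genes, and the median slope was 0.05. A count so near the background is no result about the group, and the genes are given for their own values. They were Sp100 (0.28, SE 0.04), Oas3 (0.27, SE 0.07), Zbp1 (0.17, SE 0.05), Lgals3bp (0.16, SE 0.04), Trim25 (0.14, SE 0.03) and Dtx3l (0.13, SE 0.04). The slope on Ifng beside Cd3e passed for 38 of the 39, against 13.9% of all genes, with a median of 0.48. Oasl1 (0.78, SE 0.06) and Mx1 (0.73, SE 0.06) had the steepest slopes on Ifng, then Rsad2 (0.62), Oas3 (0.61), Zbp1 (0.60) and Isg15 (0.60). Ifi27 was the member that did not pass (0.05, SE 0.04, edgeR adjusted p 0.41). Markers of other immune cells also had slopes on Ifng beside Cd3e that passed, and their part in the result was not tested. They passed upward in 4 of 4 for NK cells (median 0.53), 4 of 6 for monocytes and macrophages (Ly6c2 0.67, Ccr2 0.54, Lyz2 0.53), 4 of 5 for B cells (median 0.30) and 9 of 14 for T cells (median 0.13). Proliferation genes passed in 3 of 3 (median 0.30), the 2 neutrophil markers tested in 2 of 2, and microglial markers in 2 of 8, with 1 called downward. Endothelial markers passed upward in 3 of 4 (median 0.16) and astrocyte ones in 3 of 5 (median 0.14). Medium spiny neuron (0 of 9), erythrocyte (0 of 5) and cortical markers (0 of 4) did not. Of the pathway lists, receptors passed in 5 of 6, kinases and transcription factors in 8 of 9, upstream sensing in 8 of 10 and negative regulators in 3 of 6.

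The model with both slopes was then refitted in 5 ways, in batch 1 alone, without the 4 libraries of over 90% in 10 genes, without library 16762, with at least 1 CPM of Cd3e, and with the summed T cell markers in place of Cd3e. The slope on the T cell measure passed, in that order, for 4 genes (9.24% of all genes), 4 (10.4%), 7 (11.4%), 5 (11.6%) and 4 (10.5%), so that most of these counts lay at or near the background. Sp100 and Lgals3bp were among them each time. The slope on Ifng passed for 38 of the 39 each time, against 14%, 13.2%, 13.4%, 14.3% and 12.3% of all genes. With at least 1 CPM of Cd3e, Cmpk2 had a slope on Cd3e of −0.17 (SE 0.04) beside Ifng, while Sp100 stood at 0.32 (SE 0.04). Ifng and Cd3e are measured with few counts in the quiet libraries, 1 and 2 in library 19754, so neither slope is free of counting error in the regressor.

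**Figure D5:**
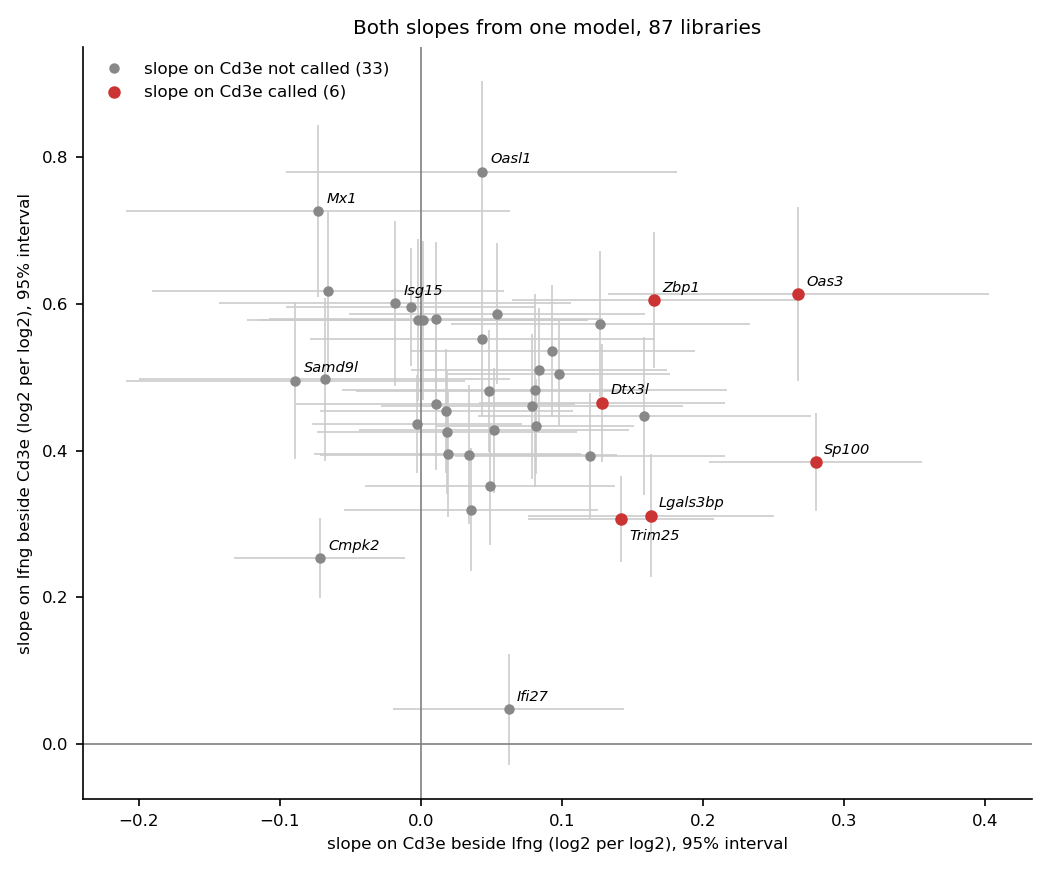
Slopes of the 39 genes on Cd3e (horizontal axis) and on Ifng (vertical axis) from 1 model with group and batch, both as log2 change per doubling with 95% intervals, red where the slope on Cd3e passed. Most points lie near 0 across and well above 0 in height, Sp100 and Oas3 lie farthest right at 0.28 and 0.27, and Ifi27 lies near 0 on both axes.

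The highest libraries set the 2 measures apart. Library 19099 had the most Ifng of all 87 (19.6 CPM, 535 counts) and 4.37 CPM of Cd3e, which ranked 46th, and library 19727 came next in Ifng with 14.5 CPM. Library 16762, the highest in the summed level of the 39 genes, ranked 14th in Ifng (6.22 CPM) and 57th in Cd3e (3.37 CPM). The highest Cd3e value, 16.4 CPM, was in library 17907 and rested on 16 counts. In the lowest library, 19754, Oas3 stood at 0.284 CPM and Sp100 at 1.35, while Ifi27 stood at 22.6 and Cmpk2 at 40.3.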

How the data were processed

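The authors deposited a table of raw counts per gene for whole-tissue libraries of total RNA, ribo-depleted and stranded per the labels' protocols. Per the submitters' processing notes, the tools were HISAT2, Trim Galore, featureCounts of Subread, SAMtools and DESeq2 1.27, with the build mm10. Annotation and strand setting are not given in the sources used. Of 88 labelled samples 87 were analysed, 1 column of the table was not used, and 93 gene IDs without a name in GENCODE M21 were kept. CPM is a count relative to the TMM-scaled library total.

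The model was edgeR's quasi-likelihood fit (version 4.0.16 under R 4.3.3, TMM, filterByExpr by group) to counts of all 12 groups with batch as a term, and p-values were adjusted over all 25420 genes tested. Slopes added log2 CPM of Cd3e (prior count 2), and of Ifng where stated. Correlations used 100000 resamples in batch 1 and all 4320 arrangements within groups in batch 2. DESeq2 1.42.0 and limma 3.58.1 served as alternatives. The scripts were tested on simulated data. The genes, lists and tests were chosen with earlier results of these data known. Named by rule were, in each role, the gene highest per length and those of steepest and shallowest slope on Cd3e, in each contrast the 2 of smallest p, and in each list the 3 most abundant. Motifs were searched in RefSeq promoters of GRCm38.p6. Values of some single genes of the comparison lists are not reported here.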

Additional observations from a re-analysis of the deposited data

Results flagged for a closer look

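For the 13 genes named by role, each group of 4 to 10 libraries was examined (143 groups). Its highest and lowest library were compared with their neighbours. In 10 the gap was wide for the group's range, not far from the about 5% that chance gives. In 9 of them it was male D2 control library 19099, the highest of its group of 8. These genes move together, so the 9 are 1 library standing apart and not separate findings. The 5% also does not allow for a group that mixes batches, as this one does. Library 19099 held 422 CPM of Ifit3 (the next library 124), 145 of Ifit3b, 205 of Ifi27l2a (next 29.6), 91.1 of Zbp1 and 228 of Isg15 (next 42.9). It also held 152 of Herc6, 127 of Ifih1, 48.5 of Dhx58 and 236 of Irf7. This library is from batch 1, as is 1 other of the group, 18386, which is the lowest in most of these genes, and the remaining 6 are from batch 2. It also had the most Ifng of all libraries. The other case was Isg15 at 116 CPM in female D2 library 18167 with the Fosb guide (next 64.6).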

How the results depend on the processing

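Counts of genes called were compared with 156 counts under alternative settings, of which 133 belong to a reported count of 0 or of 39 of 39, so that a like count says little of stability. The median log2 fold change of female D1D2 mice, for one, was 1.85 under limma-voom. Counts that moved by over 1.5 times follow, with the genes called among all tested. Female D1D2 under limma-voom had 20 (194 of 25420) and male D2 without the batch term 1 (427 of 25420). The sexes under limma-voom had 1 (8106 of 25420). Any group difference had 24 under limma-voom (9496 of 25420) and 0 without the filter on low counts (3591 of 49323). The Cd3e slope had 6 with Ifng in the model (11.1% of all genes) and 21 in batch 2 alone (11.1%). At 1 CPM or more of Cd3e it had 14 (16.5%). Spearman rho in batch 2 called 7 (1698 of 25419 with rho above 0). The comparisons of single genes did not cover all 39 in every setting, and the sign changed in 7 of 481. These were Ifi27 in female D2 without the 4 libraries of over 90% in 10 genes (0.030), Rsad2 in male D2 under limma-voom (0.10), the Cd3e slopes of Isg15 (−0.018) and Herc6 (−0.0026) beside Ifng and of Ifi27 in batch 2 (−0.027) and at 1 CPM or more (−0.067), and the Ifng slope of Ifi27 at 1 CPM or more (−0.057). Beyond these 7, the Cd3e slopes of Cmpk2 at 1 CPM or more and of Mx2 in batch 2 also lay below 0. Beside Ifng, 30 of all 39 Cd3e slopes lay above 0. The cause was not tested. Of the 481 comparisons a further 26 lost their call and 2 gained one. Leaving out each of the 4 libraries of the smallest group in turn, 0 of the 39 genes were called in male D1 and in male D1D2 each time. Among all genes tested 0 were called in male D1 and between 0 and 4 in male D1D2. The median log2 fold change of the 39 genes then ran from −0.31 to 0.38 in male D1 and from 0.05 to 0.55 in male D1D2. In the same fits Ifi27 ran from 0.23 to 0.48 and Irf9 from 0.41 to 0.53 in male D1D2, and Lgals3bp from 0.29 to 0.88 and Rsad2 from −0.96 to −0.16 in male D1. No paired analysis was possible because the groups share no replicate numbers. Depth limits Oasl1, Oas2 and Cd3e most, which fall to a few counts in the quiet libraries.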

Other observations

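The spread of the 39 genes differed between the guides in a way the tests of means do not show. The standard deviation of their mean log2 CPM was larger in the control group in 6 of 6 arms, from 0.57 against 0.36 in female D1 to 2.41 against 0.71 in female D1D2 and 1.51 against 0.31 in male D2 mice. The same held for the summed level in 6 of 6 arms. The 11 libraries with the lowest summed level all carried the control guide, and so did 8 of the 10 highest, although 43 of the 87 libraries were controls. This was noticed in these data, and neither the difference in spread nor a cause of it was tested. Most of the lowest libraries also held the least Cd3e and Ifng, with at most 0.246 CPM of Cd3e and 0.129 of Ifng in the 6 lowest.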
